A study of Sorghum bicolor with 12 samples.

Results

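The response of root genes to salt was followed in M-81E, a salt-tolerant sweet sorghum line, by comparing 3 libraries of plants given 150 mM NaCl for 24 h (M-81E-salt) with 3 libraries of plants given none (M-81E-CK). The loci described carried a sorghum gene identifier (SORBI) and had a mean of at least 1 FPKM over these 6 libraries. Of 34352 loci in the table, 30167 had such an identifier and 14085 passed the level as well. FPKM is the number of fragments per length of transcript, scaled to the mapped fragments of a library. The level was set on the mean of both groups, so 500 of the 14085 loci passed through the salt libraries while their CK mean was under 1, and 469 passed through the CK libraries alone. The member nearest the limit had a mean of 1.000081 FPKM and the locus just outside it 0.999784 FPKM.

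Treatment began at the three-leaf stage, and roots were sampled after it. The paper gives the NaCl concentration and states that it was reached in steps, which the sample labels do not mention. The same treatments were applied to Roma, a salt-sensitive line, in 6 further libraries, used here only where a change in M-81E was compared between the lines. Each line is a single genotype, so a difference between M-81E and Roma cannot be told apart from any other difference between these genotypes. The paper calls the 3 libraries of a group biological replicates, while neither it nor the labels say how plants were allotted to them, and p-values measure the spread between these libraries.

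Salt reaches root cells as a loss of water uptake and as an inflow of sodium. Plants are known to answer with transporters that move sodium and potassium across membranes, with soluble sugars and other osmolytes that hold water, with hormones such as abscisic acid and ethylene, with peroxidases and other enzymes that handle reactive oxygen, and with slower growth. Raffinose and related galactosides, proline and sucrose are among the osmolytes studied most in plants under drought and salt.

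Function was read from the table, where 12368 members carried a GO term and 4417 an enzyme number. Descriptions were of little use, since 13217 members were called hypothetical, uncharacterized or unknown. GO and enzyme names therefore stand for what a locus resembles, not for a tested activity, and the GO terms and the enzyme number of a locus were not always of the same function. An FPKM value belongs to a locus: 1049 members held 2 or more annotated genes, and the gene name of 844 members stood at more than 1 locus. Between libraries of a group, log2(FPKM + 1) over members correlated at 0.887 to 0.895 in CK and 0.868 to 0.887 in salt, against 0.852 to 0.870 between groups. The paper gives read numbers for each group, which were similar for M-81E-CK and M-81E-salt, but the depth of single libraries is unknown. The GO term for light harvesting, a leaf function, summed to 10.2 to 32.9 FPKM over its 18 loci in CK and 12.1 to 24.4 in salt. The 35 loci for root hair elongation summed to 538 to 600.1 FPKM in CK and 581 to 592 in salt. Fewer cells of a type and less RNA per cell cannot be told apart in such samples.

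Differences were tested with limma on log2(FPKM + 1) over all 32212 loci above 0 in M-81E. With an adjusted p under 0.05, 79 members rose and 123 fell, which is 0.561% and 0.873% of the members. Over all loci tested, 0.332% were called higher and 0.494% lower. These are the changes called risen or fallen below. A looser call followed the thresholds of the study, an unadjusted p under 0.05 and a mean FPKM at least 2-fold apart, and is termed DEG. By it 295 members were higher and 417 lower in salt, 2.09% and 2.96% of the members, where 3.07% and 3.5% of all loci tested were called. Unlike the shares by the adjusted test, these DEG shares lay below the background. Most members changed by little: the median log2 difference was 0.04, and the 10th and 90th percentiles were -0.54 and 0.49.

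**Figure D1:**
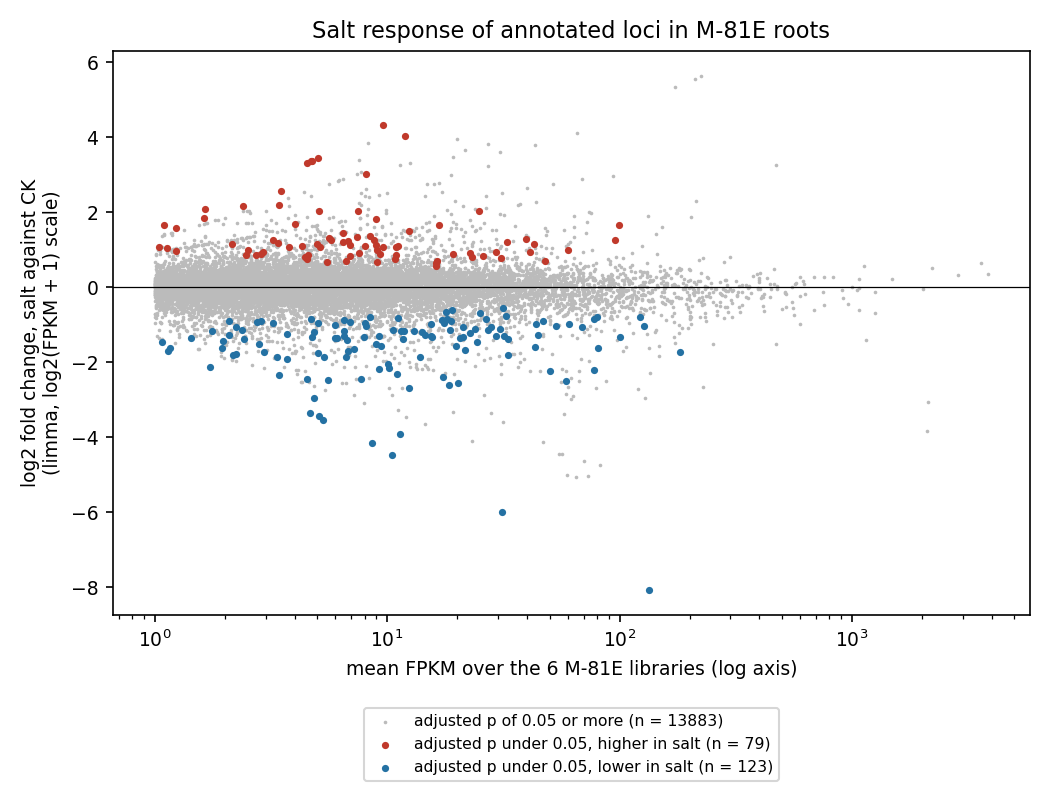
Each point is 1 of the 14085 members, placed by its mean FPKM over the 6 M-81E libraries (log axis) and its log2 fold change in salt on the log2(FPKM + 1) scale. Red points are the 79 members that rose and blue points the 123 that fell with an adjusted p under 0.05, and both are found at low as well as at high expression.

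Of the members that rose, 21 changed by 4-fold or more, 40 by 2-fold to 4-fold and 18 by less. Of those that fell, the numbers were 44, 62 and 17. Loci at 0 in all 3 libraries of a group, 7 and 9 in number, are counted with the first of these classes. The libraries of CK and salt did not overlap at any of the 202 loci, but they did not overlap at 31.1% of all members either. The lower group had a mean under 1 FPKM at 18 of the 79 and 28 of the 123. Calls were sensitive to single libraries: 10 of the 79 and 20 of the 123 kept an adjusted p under 0.05 whichever of the 6 libraries was left out, and 41 and 55 kept it in none of these fits.

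Enzymes of galactosides, sucrose and starch changed in both directions. Alpha-galactosidases, which release galactose from raffinose and other galactosides, were represented by 5 members, of which 3 rose and none fell. All of these were assigned by enzyme number, and their GO term named the cell wall alone. The most abundant riser, SORBI_3001G208100, read 45.8, 56.3 and 38.2 FPKM in CK and 128, 134 and 196 in salt. SORBI_3002G417800 read 18.4, 21.8 and 17.9 against 44.5, 49.8 and 43.4 FPKM, and SORBI_3001G208200 read 0.286, 0.363 and 0.281 against 2.02, 1.95 and 1.37 FPKM. SORBI_3001G208200 passed the level of 1 FPKM only through its salt libraries, which favours its place among the risers. In each of the 3 genes the lowest salt library lay above the highest CK library, as in every member that rose. Fold changes of the means were 3.26, 2.37 and 5.74, with adjusted p of 0.0492, 0.0210 and 0.0402. SORBI_3001G208100 and SORBI_3001G208200 have neighbouring identifiers and the same enzyme class, so reads from similar sequences may have been split between them. With single libraries left out in turn, the calls held in 0, 2 and 1 of 6 fits.

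Galactinol-sucrose galactosyltransferases, the enzyme class that builds raffinose, moved in both directions. SORBI_3002G075800 had 1.59, 1.84 and 1.58 FPKM in CK and 5.62, 5.37 and 4.27 in salt, a rise of 3.05-fold with an adjusted p of 0.0292. This locus also carries GO terms for the breakdown of raffinose, and its call held in 1 of 6 fits without a library. SORBI_3007G219900 started higher, at 26.2, 23.4 and 40.9 FPKM, and fell to 5.27, 4.07 and 4.98, so that CK was 6.33-fold above salt (adjusted p = 0.0212, held in 2 of 6 such fits). The class had 6 members in all, of which 1 rose and 1 fell. By the looser call 1 was a DEG higher and 3 were DEGs lower, and the median was -0.41. After salt the pair stood at about the same level, 5.09 ± 0.719 and 4.77 ± 0.629 FPKM (SD, n = 3).

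Sucrose synthase, which splits or makes sucrose with a nucleotide sugar, rose at 1 of its 6 loci. SORBI_3001G378300 went from 6.40, 7.35 and 8.88 FPKM to 26.6, 24.9 and 25.9, or 3.42-fold (log2 change 1.66 ± 0.12, SE; adjusted p = 0.0113). It was the only locus of the list of sucrose and starch metabolism to rise, while 3 of the 43 fell and 11.6% were DEGs lower in salt. SORBI_3004G004800, with the enzyme number of invertase, which splits sucrose into glucose and fructose, and a GO term of a fructosyltransferase, fell from 82.7, 80.0 and 88.2 FPKM to 18.0, 15.6 and 17.5. The difference of -2.23 ± 0.09 on the log2 scale (adjusted p = 0.00225) held without each of the 6 libraries in turn. The 9 members with the enzyme number of invertase had a median of 0.10. Of these, 2 were higher and 3 lower at an unadjusted p under 0.05, and 1 fell.

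Both beta-amylases that changed were lower. These enzymes release maltose from starch, and 2 of their 7 members fell. SORBI_3001G293800 had 119, 119 and 149 FPKM in CK against 28.6, 28.3 and 24.0 in salt, and SORBI_3001G372100 had 58.5, 47.3 and 50.8 against 14.8, 14.6 and 13.3. CK exceeded salt 4.77-fold and 3.67-fold, with adjusted p of 0.00749 and 0.00748, and neither call depended on a single library. Inositol oxygenase SORBI_3010G168800, which opens the ring of inositol, was among the most abundant members to fall, from 258, 249.5 and 333 FPKM to 80.3, 81.9 and 88.4 (adjusted p = 0.0178).

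**Figure D2:**
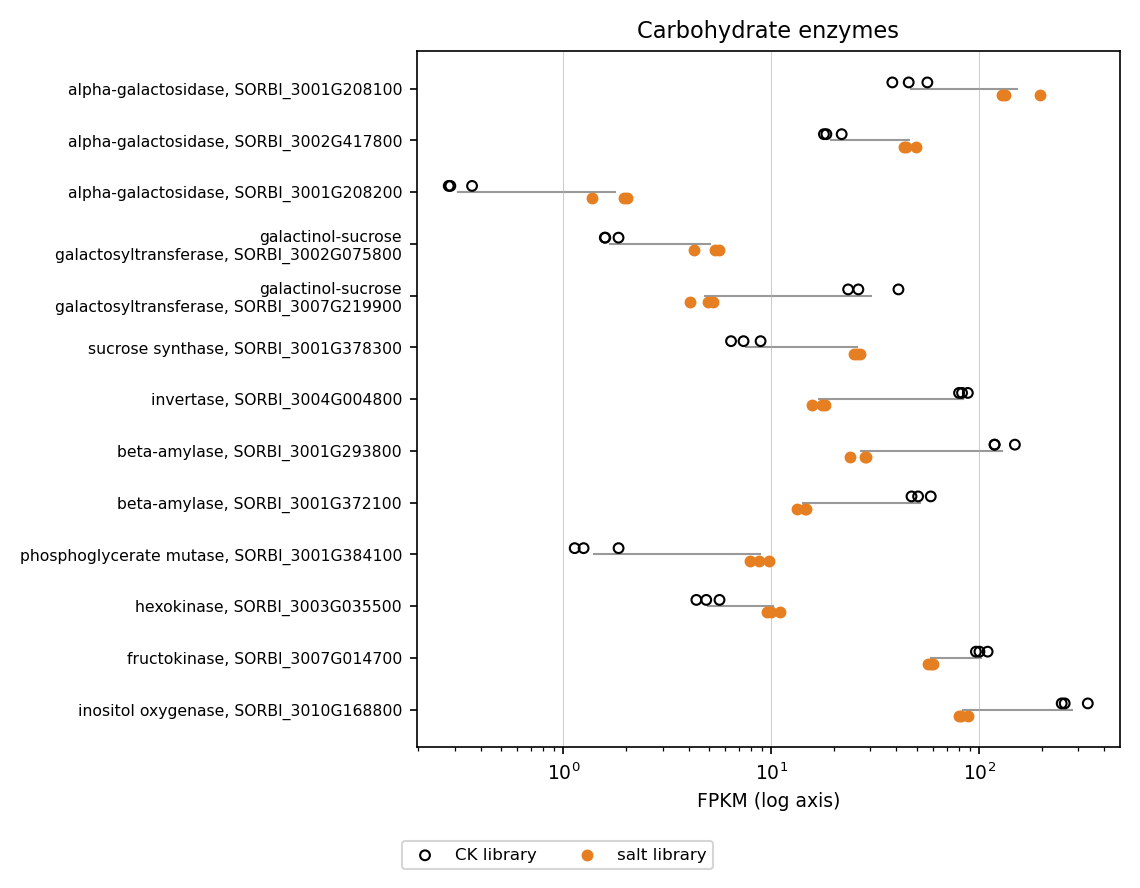
FPKM (log axis) of 13 carbohydrate enzymes in each M-81E library, with CK libraries as open circles, salt libraries as filled circles and a line between the group means. Every locus shown passed an adjusted p under 0.05, the alpha-galactosidases and sucrose synthase upward and the invertase and beta-amylases downward. The circles of the groups are apart in each row, as they are at all 202 members that passed.

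Further down the use of sugars, glycolysis had a median of -0.13 over its 61 members, below the 0.04 of all members, yet 3 members rose and none fell. Phosphoglycerate mutase SORBI_3001G384100, which acts in the lower part of glycolysis, went from 1.84, 1.13 and 1.25 FPKM to 9.77, 8.73 and 7.93, a rise of 6.26-fold (adjusted p = 0.0113). Hexokinase SORBI_3003G035500, which phosphorylates glucose, rose from 4.86, 4.36 and 5.63 FPKM to 9.58, 9.92 and 11.0. Another hexokinase-type locus, SORBI_3009G069800, was far more abundant and read 110.1, 71.6 and 117 FPKM in CK against 51.6, 39.6 and 44.3 in salt, with an adjusted p of 0.109. A fructokinase, SORBI_3007G014700, fell from 96.5, 100.3 and 109.8 FPKM to 58.7, 59.7 and 57.0 (adjusted p = 0.0361). None of the 30 members of the tricarboxylic acid cycle and malate list passed either call, and their median was 0.15.

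Lists for the transport of sodium, water and sugars each held 1 member that passed the adjusted test. The sodium transport list had 11 members with a median of 0.12, of which 81.8% were higher in salt, 4 of them and no lower one at an unadjusted p under 0.05. The member that rose, SORBI_3003G145800, a plasma membrane sodium transporter, read 3.90, 5.26 and 3.78 FPKM in CK and 11.4, 12.4 and 13.9 in salt. The rise was 2.91-fold (log2 change 1.36 ± 0.14, adjusted p = 0.0275). SORBI_3003G300600 carries the GO term of a voltage-gated potassium channel and increased from 2.11, 2.18 and 2.54 FPKM to 13.3, 15.6 and 9.34, 5.60-fold (adjusted p = 0.0212). This channel is not in the potassium transport list, which was drawn from other GO terms and description words and holds 15 members, none of them a DEG, with a median of 0.01.

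Aquaporins, the channels that pass water through membranes, had 1 member that fell and none that rose among 23. SORBI_3010G087900 read 22.3, 21.6 and 18.9 FPKM in CK and 7.41, 8.27 and 8.65 in salt (log2 change -1.27 ± 0.10, adjusted p = 0.0145). SORBI_3004G102200 had 29.2, 19.9 and 19.3 against 9.27, 8.75 and 7.42 FPKM (adjusted p = 0.0549), and SORBI_3004G238100 stood the other way, with 14.1, 14.3 and 8.58 against 42.9, 21.3 and 27.5 FPKM (adjusted p = 0.163). The median of the list, -0.07, ran from -0.18 to 0.08 as single libraries were left out, and it was above 0 without M-81E-CK2 (0.07), M-81E-salt1 (0.06) or M-81E-salt3 (0.08). A proton-exporting pump of the plasma membrane, SORBI_3001G132400, missed the adjusted threshold narrowly, at 2.32, 2.74 and 2.35 FPKM in CK and 5.95, 4.74 and 5.19 in salt (adjusted p = 0.0508).

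Among 69 members for sugar transport, 1 rose. SORBI_3008G094300, a sugar transporter of low abundance, went from 0.295, 0.412 and 0.453 FPKM to 1.64, 1.67 and 2.28 (4.82-fold, adjusted p = 0.0456). It passed the level of 1 FPKM only through its salt libraries. SORBI_3001G307700, annotated to the transport of anions, increased from 3.78, 2.34 and 4.27 to 13.5, 14.997 and 14.9 FPKM (4.18-fold, adjusted p = 0.0264). SORBI_3002G338500, a glucose importer whose gene name stands at several loci, read 1670.5, 1482 and 1866 FPKM in CK and 586, 624 and 693 in salt, with an adjusted p of 0.0689. Its groups did not overlap, which held for 31.1% of all members.

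The lists named for salt and drought changed little as a whole. The 233 members of the salt stress response list had a median of -0.01, with 2 risen and 1 fallen, and 1.72% were DEGs higher in salt. The 137 members for water deprivation had a median of -0.01, 2 risen and 1 fallen, and 4.38% DEGs higher against 0% lower. The 279 members for abscisic acid had a median of 0.07, 1 risen and 2 fallen. The GO term for the hyperosmotic salinity response was among the higher medians, at 0.18.

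Named members of these lists differed in direction. SORBI_3003G137400, described as a hydrophobic protein of the LTI6B type, a family of small membrane proteins known for induction by low temperature, rose from 3.001, 2.25 and 3.06 FPKM to 6.999, 10.4 and 7.95 (3.05-fold, adjusted p = 0.0447). SORBI_3004G116300, a calmodulin-binding protein with GO terms for heat, cold and autophagy, rose from 6.28, 6.24 and 5.42 FPKM to 18.5, 18.1 and 19.9. Its 3 salt libraries were close together, and the adjusted p of 0.00749 held without each library in turn. SORBI_3006G124000, a transcription cofactor annotated to salt and abscisic acid responses, fell from 107, 87.4 and 107 FPKM to 19.5, 17.6 and 13.7 (5.93-fold, adjusted p = 0.00861). SORBI_3001G304700, a proline dehydrogenase, which starts the breakdown of the osmolyte proline, fell from 98.0, 95.9 and 108 FPKM to 56.8, 57.5 and 51.5 (adjusted p = 0.0353). It was the only one of 9 proline metabolism members to pass.

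Loci of ethylene, brassinosteroid, auxin and jasmonate functions included members that rose and members that fell. In ethylene synthesis, 3 members had the enzyme number of ACC synthase, the enzyme that usually limits the pathway, and their median was -0.62. SORBI_3003G033900 rose from 28.6, 21.1 and 28.9 FPKM to 57.0, 65.0 and 56.3 (2.27-fold, adjusted p = 0.0429). Its call held in 0 of 6 fits without a library. Of the class, 1 member was lower at an unadjusted p under 0.05. The ACC oxidases, which form ethylene, were DEGs in both directions without passing the adjusted test. SORBI_3005G067500 read 2.68, 2.95 and 1.27 against 7.14, 9.39 and 7.48 FPKM, and SORBI_3005G067300 read 1.11, 1.66 and 0.819 against 5.13, 4.04 and 3.25. The more abundant SORBI_3009G044600 read 125, 127 and 65.6 FPKM in CK against 37.9, 47.3 and 39.8 in salt. Adjusted p were 0.0760, 0.0792 and 0.133.

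Loci with the terms of brassinosteroid metabolism were also split. SORBI_3006G183900, a monooxygenase of brassinosteroid synthesis, rose from 3.10, 3.09 and 2.65 FPKM to 5.81, 5.94 and 6.11 (adjusted p = 0.0349). SORBI_3010G182966, a monooxygenase of brassinosteroid homeostasis, fell from 44.5, 40.2 and 38.7 to 22.6, 24.0 and 24.9 FPKM (adjusted p = 0.0375). SORBI_3002G389100, with the same KEGG class and no finer term, fell from 33.5, 31.8 and 24.6 to 11.9, 11.2 and 10.3 FPKM (adjusted p = 0.0264). The class as the table gives it counted 25 members, 8 higher and 8 lower at an unadjusted p under 0.05.

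Of 178 auxin members, 6 fell and none rose, although the median of 0.09 was above that of all members. SORBI_3002G292100, a carrier of auxin out of cells, fell from 36.6, 31.0 and 31.4 FPKM to 15.7, 14.7 and 13.5 (adjusted p = 0.0212). The locus of SORBI_3004G305400 and SORBI_3004G305500, annotated to auxin signaling, fell from 2.87, 3.39 and 3.81 to 0.694, 0.812 and 0.926 FPKM (adjusted p = 0.0277), and its value cannot be divided between the genes. This locus passed the level of 1 FPKM only through its CK libraries. SORBI_3001G197400, a structural gene of the cytoskeleton that also carries terms for auxin, wounding and root hairs, fell from 41.2, 34.4 and 38.2 to 16.1, 17.3 and 16.6 FPKM (adjusted p = 0.0160). Of 203 jasmonate and wounding members, 1 rose and 5 fell. SORBI_3009G009800, annotated to wounding and jasmonic acid, fell from 8.89, 7.93 and 10.1 to 1.84, 2.24 and 1.26 FPKM (adjusted p = 0.0210).

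Protein kinases and transcription factors passed in both directions. Of 551 members with serine/threonine kinase activity, 4 rose and 11 fell, while their median was 0.10. SORBI_3008G001000, a kinase of intracellular signal transduction, was the member of this term that stood out most on the upper side, with 8.09, 10.4 and 8.997 FPKM in CK and 42.3, 44.0 and 35.6 in salt (4.43-fold, adjusted p = 0.00861). SORBI_3005G154100, a plasma membrane kinase of receptor signaling, fell from 8.21, 9.81 and 6.96 to 0.738, 0.661 and 0.658 FPKM, 12.1-fold (adjusted p = 0.00660). Both calls held without each library in turn, but SORBI_3005G154100 passed the level of 1 FPKM only through its CK libraries. SORBI_3002G255200, described as a bHLH transcription factor, rose from 42.1, 38.8 and 38.2 to 83.3, 82.2 and 73.9 FPKM (adjusted p = 0.0219). SORBI_3007G181500, a transcription factor of the abscisic acid pathway, fell from 10.5, 8.33 and 9.49 to 3.37, 4.06 and 3.50 FPKM (adjusted p = 0.0256).

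Heme peroxidases, secreted enzymes that use hydrogen peroxide to cross-link or loosen walls, were lower more often than higher. Of 124 members, 1 rose and 5 fell, 5.65% were DEGs higher and 10.5% DEGs lower, and the median was -0.11, or -0.03 without M-81E-CK2. Among those that fell, values were 159, 160.3 and 146 FPKM in CK against 84.0, 96.6 and 89.3 in salt for SORBI_3003G140700, and 90.1, 94.2 and 95.8 against 40.5, 52.5 and 40.0 for SORBI_3009G032600. SORBI_3002G416600, also annotated to lignin, fell from 28.6, 24.9 and 33.6 to 12.8, 13.4 and 13.8 FPKM, and SORBI_3006G277700 from 10.6, 13.1 and 17.9 to 4.42, 3.98 and 3.88. Their adjusted p ranged from 0.0369 to 0.0497. The one that rose, SORBI_3004G280700, a peroxidase by its description and without a GO term, was hardly present in CK, at 0.142, 0.285 and 0.227 FPKM, and reached 4.98, 3.50 and 5.24 (21.0-fold, adjusted p = 0.0118). It passed the level of 1 FPKM only through its salt libraries. In Roma it varied widely within each group, at 0.322, 20.6 and 20.2 FPKM in CK and 16.2, 0.239 and 0.279 in salt.

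Glutathione transferases, which attach glutathione to toxic compounds, had a median of -0.24 over 73 members. None rose, 1 fell, and 9.59% were DEGs lower against 0% higher. SORBI_3001G318600, one of these DEGs, read 145, 114 and 143 FPKM in CK and 7.90, 23.5 and 41.3 in salt, a 5.52-fold difference with an adjusted p of 0.122. SORBI_3002G035700 read 17.9, 16.1 and 34.7 against 4.21, 3.07 and 4.84 FPKM (adjusted p = 0.0593). The median of the list was -0.15 without M-81E-CK1, -0.07 without M-81E-CK2 and -0.09 without M-81E-salt1, and between -0.18 and -0.26 without each of the others. Catalases, which break down hydrogen peroxide, stood the other way. SORBI_3004G011566 read 8.27, 9.54 and 7.998 against 42.4, 30.1 and 13.7 FPKM and SORBI_3001G517700 read 2.37, 2.25 and 3.07 against 5.91, 5.75 and 12.3, with adjusted p of 0.173 and 0.139.

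The phenylpropanoid branch, which supplies lignin and lignans, fell at several loci. Its list had 112 members with a median of -0.19 (-0.07 without M-81E-salt1, -0.12 without M-81E-CK1 or M-81E-CK2), of which none rose and 3 fell, and 9.82% were DEGs lower against 0.893% higher. The GO term of guiding stereospecific synthesis, borne by dirigent-type proteins that steer the coupling of phenylpropanoids, had the third lowest median of 479 terms with at least 20 members, -0.46 over 22 members, although single salt libraries ranged from -0.82 to -0.06. SORBI_3005G218500 fell from 7.38, 6.23 and 5.68 FPKM to 1.38, 1.05 and 0.518 (6.55-fold, adjusted p = 0.0265), and SORBI_3009G021600 from 9.65, 10.8 and 13.7 to 2.64, 4.05 and 2.38 (3.77-fold, adjusted p = 0.0400). An O-methyltransferase of aromatic compounds, SORBI_3009G197400, fell from 33.3, 33.9 and 38.5 to 4.20, 5.88 and 5.39 FPKM (6.83-fold, adjusted p = 0.00480). Its neighbour by identifier, SORBI_3009G197600, fell from 21.0, 22.2 and 24.5 to 10.2, 12.9 and 12.5 FPKM (adjusted p = 0.0497). SORBI_3001G199400, a copper oxidase of the wall, fell from 3.93, 3.46 and 4.37 to 1.14, 0.824 and 0.760 FPKM (adjusted p = 0.0256). Both SORBI_3005G218500 and SORBI_3001G199400 passed the level of 1 FPKM only through their CK libraries.

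A few loci of wall polysaccharides rose. SORBI_3008G003600, a Golgi O-acetyltransferase of wall synthesis, went from 26.7, 27.2 and 29.2 FPKM to 52.4, 51.1 and 59.7 (adjusted p = 0.0256). SORBI_3002G302000, a xyloglucan transferase that cuts and rejoins wall chains, rose from 1.54, 1.92 and 1.45 to 4.03, 3.78 and 3.66 FPKM (adjusted p = 0.0460). SORBI_3004G238801, annotated to wall loosening, as expansins are, rose from 0.570, 0.442 and 0.506 to 1.88, 1.96 and 2.07 FPKM (adjusted p = 0.03003). The last pair were the only risers in their lists, of 22 members for xyloglucan and 32 for wall loosening, and the medians of these lists were -0.06 and 0.06. SORBI_3004G238801 passed the level of 1 FPKM only through its salt libraries.

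**Figure D3:**
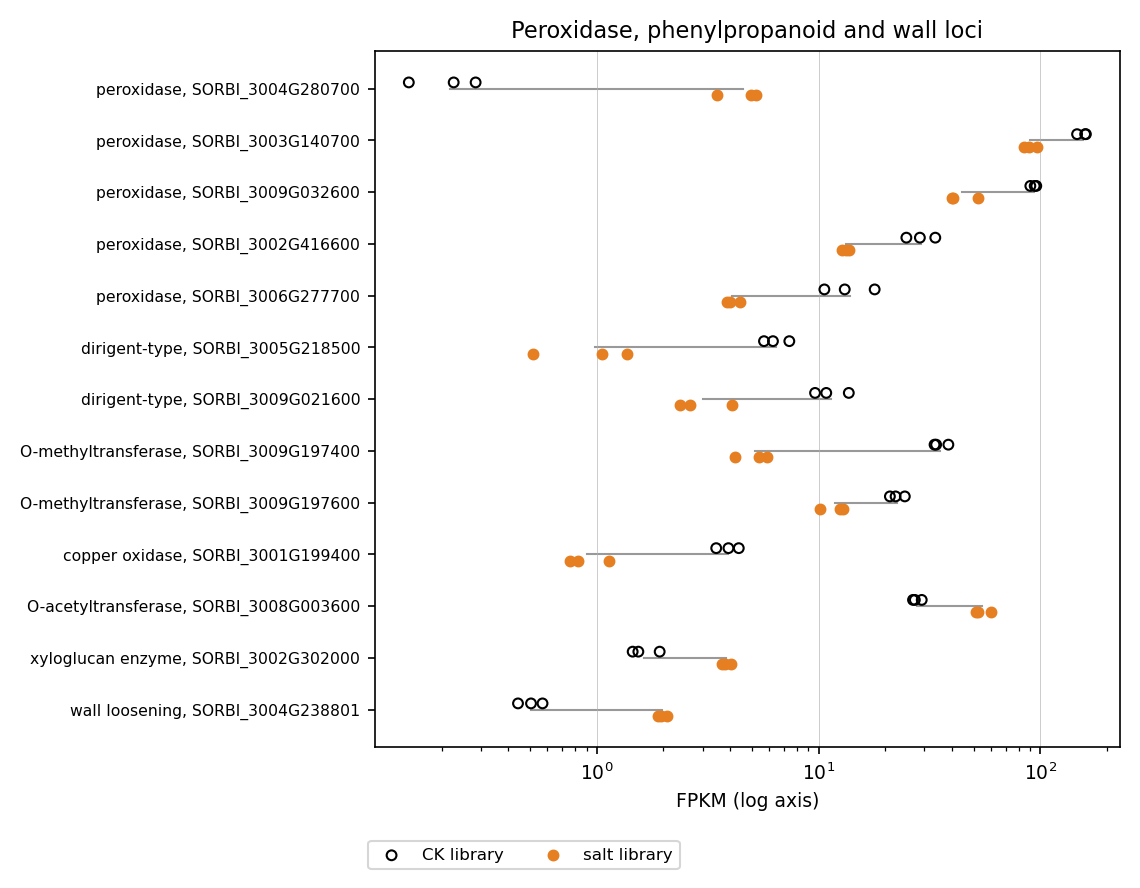
FPKM (log axis) of 13 peroxidase, phenylpropanoid and wall loci in each M-81E library, with CK as open circles, salt as filled circles and a line between the group means. The peroxidase SORBI_3004G280700 and the 3 loci of wall polysaccharides and loosening are higher in salt, and all other rows are lower.

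Cytosolic ribosomal proteins and nucleosome histones were mostly lower in salt by small amounts. GO terms for other chromatin functions were divided. Nucleosome assembly had a median of -0.25 over 20 members and chromatin silencing -0.04 over 27, with 30% and 44.4% of them higher. Chromatin modification had a median of 0.14 over 46 members, 73.9% of them higher. Cytosolic ribosomal proteins had a median of -0.39 over 245 members, 20% of which were higher in salt, against 54.5% of all members. Only 2 of them rose and 1 fell by the adjusted test, and 87 were lower at an unadjusted p under 0.05 against 4 higher. Each salt library gave a median between -0.47 and -0.30 when set against the CK mean, and the median stayed between -0.25 (without M-81E-CK3) and -0.48 (without M-81E-CK1) as single libraries were left out. SORBI_3004G104100, a protein of the large subunit, read 36.9, 36.9 and 51.9 FPKM in CK and 19.97, 13.7 and 12.1 in salt, and SORBI_3005G019700 of the small subunit read 61.2, 60.1 and 76.1 against 20.7, 28.9 and 33.3. Both had an adjusted p of 0.0739. SORBI_3009G227400, described as ribosomal protein L37a, fell from 24.3, 23.6 and 22.1 FPKM to 12.3, 10.01 and 12.8 (adjusted p = 0.0375).

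Nucleosome histones, which package new DNA, had the lowest median of the 58 lists, -0.48 over 37 members, with none past the adjusted test and 7 lower at an unadjusted p under 0.05 against 1 higher. SORBI_3006G076400, with the nucleosome GO term but the enzyme number of a peroxidase, read 17.6, 20.4 and 23.2 FPKM in CK and 8.52, 11.4 and 8.72 in salt (adjusted p = 0.0618). The single salt libraries spread widely, with medians from -0.46 to -0.15 for the list, and the summed FPKM of the 25 nucleosome loci ran from 1577 to 1982 in CK and from 878 to 1964 in salt. DNA replication (51 members, median -0.20), ribosome biogenesis (66, -0.22) and microtubules with kinesins (80, -0.18) lay on the same side. Within the last, the tubulin-type SORBI_3001G146000 rose from 17.2, 18.6 and 18.8 to 31.1, 34.2 and 35.2 FPKM (adjusted p = 0.0264), whereas SORBI_3001G073700, also a microtubule gene, read 10.7, 9.84 and 10.8 against 4.13, 5.99 and 5.42 FPKM (adjusted p = 0.0653). Highest of all lists was autophagy, the recycling of cell contents, with a median of 0.20 over 34 members and 1 that rose, SORBI_3004G116300.

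**Figure D4:**
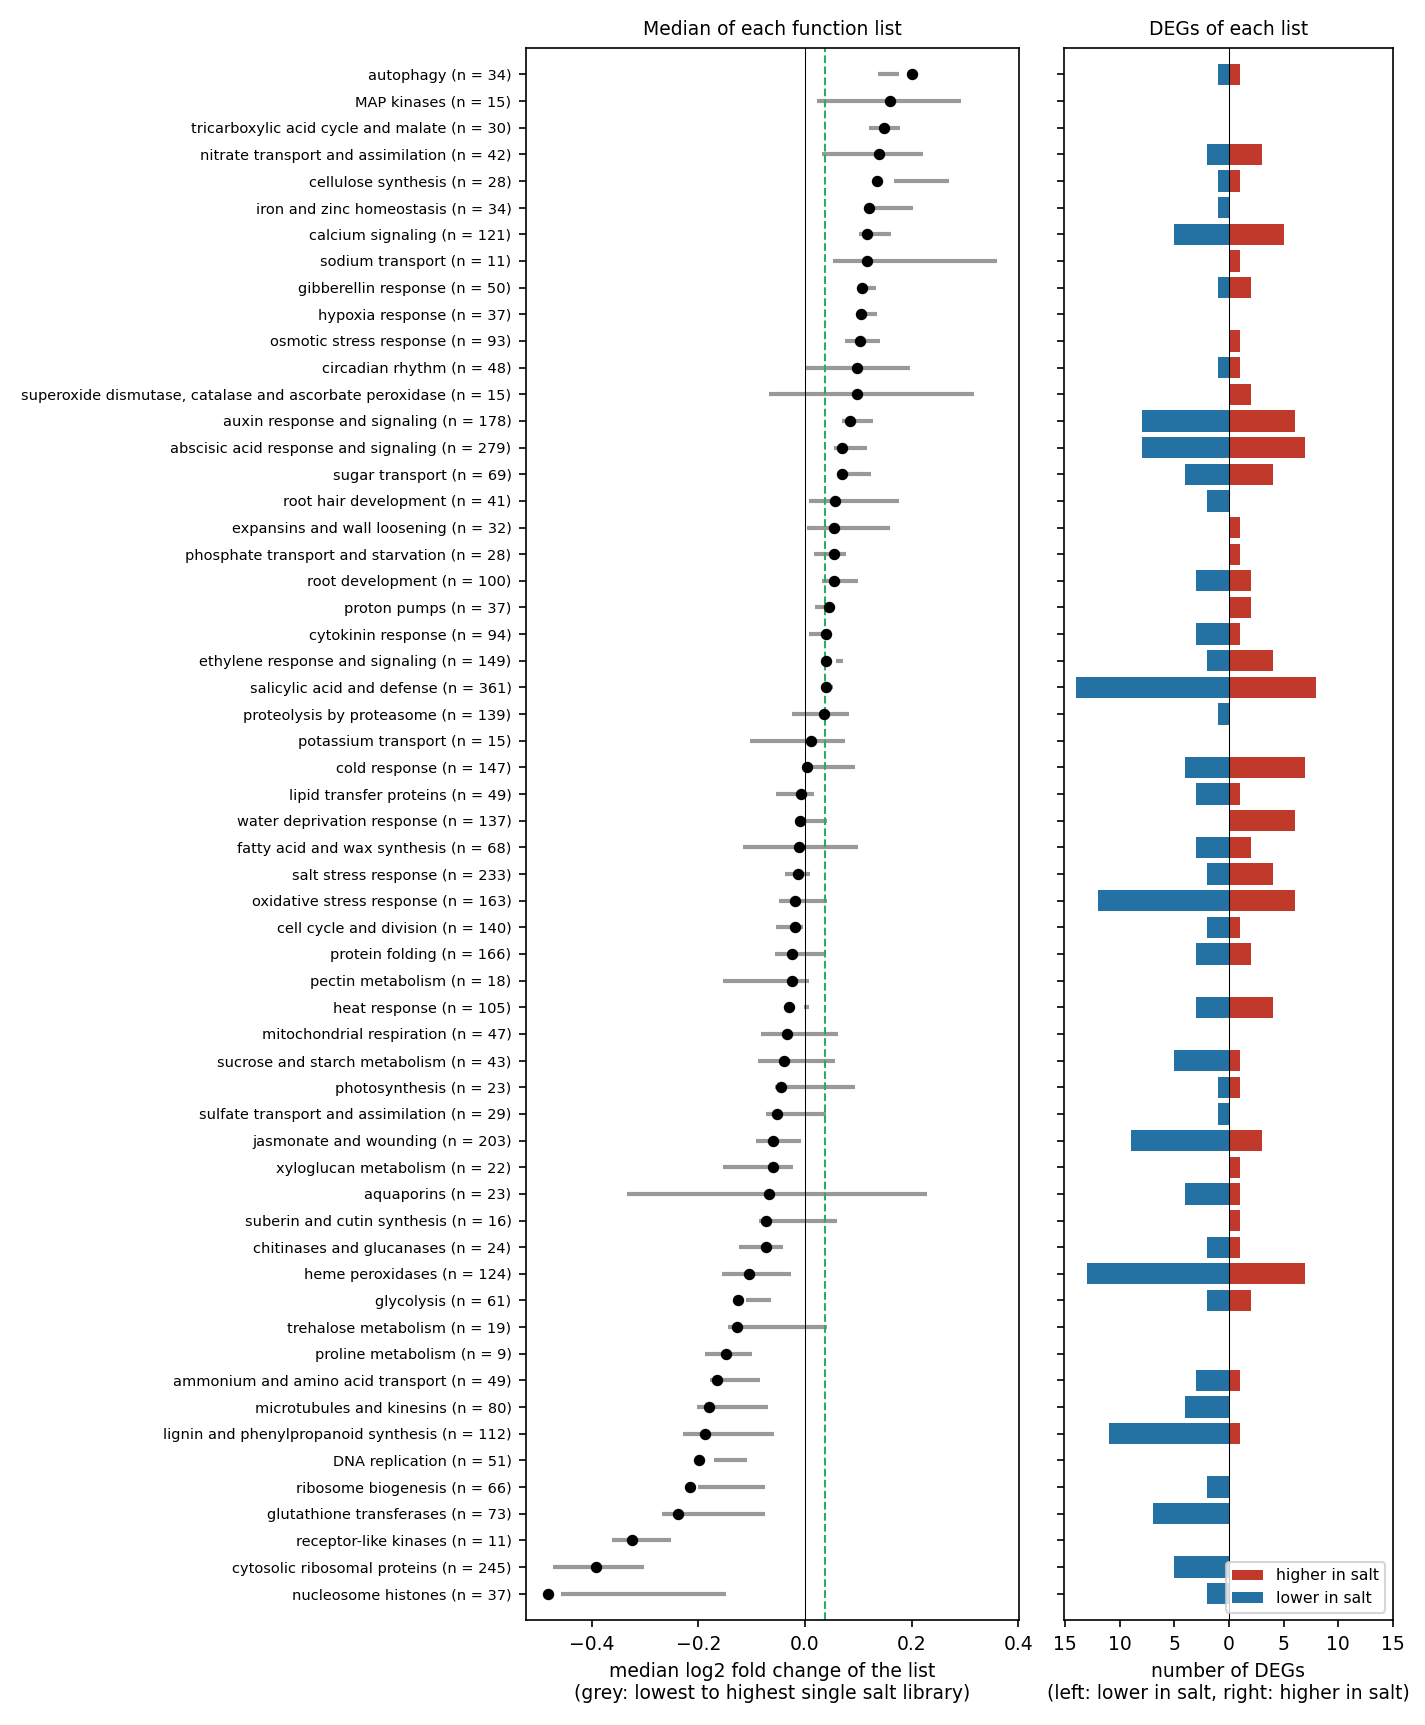
Left, the median log2 fold change of each of 58 function lists (black points), with the lowest and highest median obtained from a single salt library set against the CK mean (grey lines, which need not cover the point) and the median of all members, 0.04 (dashed line). Right, the number of DEGs of each list, lower in salt to the left and higher to the right. Nucleosome histones and cytosolic ribosomal proteins have the lowest medians and few DEGs. Heme peroxidases and salicylic acid and defense have the most DEGs, 20 of 124 and 22 of 361 members. For salicylic acid and defense the shares, 2.22% higher and 3.88% lower, are near the 2.09% and 2.96% of all members.

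Across the 479 GO terms with at least 20 members, 311 had a median above 0 and 166 below. After the nucleosome (-0.58, 21 members) the lowest were the cytosolic small ribosomal subunit (-0.47, 80 members) and the dirigent-type term. The highest were transcription from RNA polymerase II promoters (0.30, 33 members, 78.8% higher), nitrate assimilation (0.24, 27 members), sterol metabolic process (0.22, 20 members) and the mediator complex (0.22, 27 members), which links transcription factors to the polymerase. For nitrate assimilation the single salt libraries ranged from -0.12 to 0.27. The related term of sterol biosynthesis lay on the other side, with a median of -0.24 over 26 members, 19.2% of them higher. Terms share many loci, and their medians are not independent.

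A few enzymes of amino acids, chosen after their values were seen except SORBI_3001G193600, changed as well. SORBI_3001G193600, with the enzyme number of methionine gamma-lyase, which breaks down methionine, fell from 14.1, 16.2 and 16.7 FPKM to 2.12, 2.80 and 3.21 (5.78-fold, adjusted p = 0.00884). SORBI_3001G447500, a branched-chain amino acid transaminase with GO terms for the synthesis of these amino acids, fell from 8.44, 6.69 and 9.93 to 1.62, 2.33 and 1.40 FPKM (adjusted p = 0.0292). SORBI_3001G488200, an alanine-glyoxylate transaminase, fell from 60.5, 57.0 and 80.8 to 18.5, 21.3 and 22.8 FPKM (adjusted p = 0.0256). In contrast SORBI_3010G001600, homogentisate dioxygenase of tyrosine breakdown, rose from 7.18, 7.88 and 7.32 to 13.5, 14.8 and 14.9 FPKM (adjusted p = 0.0227).

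SORBI_3007G137700, an extracellular ribonuclease with the term for phosphate starvation, rose from 54.3, 56.8 and 54.8 FPKM to 132, 159 and 117 (2.46-fold, adjusted p = 0.0278) and was among the 5 most abundant members to rise. SORBI_3004G157300, a glycerophosphodiester phosphodiesterase of phosphate homeostasis, fell from 172, 186 and 156 to 83.6, 84.9 and 80.9 FPKM (adjusted p = 0.0275). SORBI_3002G421600, annotated to sulfate assimilation and disulfide exchange, fell from 41.2, 42.2 and 54.2 to 17.7, 20.8 and 15.8 FPKM (adjusted p = 0.0375). SORBI_3002G135800, a chlorophyllase, fell from 17.3, 16.8 and 16.4 to 2.58, 3.52 and 3.90 FPKM (5.05-fold, adjusted p = 0.00900), and SORBI_3002G342400, a sterol demethylase, from 18.5, 15.6 and 22.8 to 3.55, 4.09 and 1.75 FPKM (adjusted p = 0.0374).

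Some of the widest changes belonged to loci whose annotation says little. SORBI_3003G215700, an ATPase of the mitochondrial inner membrane, rose from 0.441, 0.455 and 0.402 FPKM to 14.6, 29.7 and 26.2 (54.3-fold, adjusted p = 0.00884), and its Roma libraries ranged from 0.223 to 34.5 FPKM. SORBI_3007G148100, annotated to protein binding alone, fell from 21.5, 19.5 and 25.6 FPKM to 0.519, 0.462 and 0.582 (42.6-fold, adjusted p = 0.000856). SORBI_3003G215700 passed the level of 1 FPKM only through its salt libraries and SORBI_3007G148100 only through its CK libraries. Both calls held without each M-81E library in turn.

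At 16 of the 202 loci the other group was listed at 0 in all 3 libraries, 7 among those that rose and 9 among those that fell. A 0 in such a table can be a failed estimate, since 522 members whose CK and salt means both reached 1 FPKM had a 0 in 1 or 2 libraries. No fold change is therefore given for these 16. SORBI_3003G110200, annotated as an oxidoreductase that binds zinc, fell from 239.5, 274 and 288 FPKM to 0 in all salt libraries, and SORBI_3004G191300, without a GO term, from 60.3, 60.8 and 66.9 FPKM to 0. The gene name of the first also stands at a second locus, with group means of 0.905 and 1.20 FPKM. SORBI_3002G311300, a glucosyltransferase of flavonoids, read 9.81, 9.88 and 12.2 FPKM without salt, and every salt library listed it at 0. SORBI_3009G125800, with terms for brassinosteroid signaling and kinase inhibition, read 9.21, 8.12 and 10.7 FPKM without salt, and its salt libraries were at 0, but the same gene name also stood at a second locus with 0.293 and 0.298 FPKM as group means. Among risers, SORBI_3001G028000 and SORBI_3003G246200, both without a GO term, stood at 0 without salt and reached 7.47, 9.98 and 11.1 FPKM and 8.13, 11.1 and 9.05 FPKM with it. SORBI_3009G165500, a membrane protein of unknown function, was likewise at 0 without salt, and its salt libraries read 11.3, 7.63 and 8.16 FPKM.

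To ask which of these changes differed in the salt-sensitive line, the interaction of line and treatment was tested over the 12 libraries. Of the 202 members, 47 had an interaction with an adjusted p under 0.05, 19 of those that rose and 28 of those that fell, where 1.81% of all 34352 loci were called. The 202 were chosen for their change in M-81E, and the interaction uses the same 6 libraries, so a smaller response in Roma is favoured by that choice and its share is given as a description. In Roma, 54 of the 79 and 99 of the 123 changed in the same direction as in M-81E.

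Among sugar enzymes, SORBI_3001G208100 separated the lines. Its Roma values were 120.4, 77.1 and 62.0 FPKM in CK and 53.6, 53.5 and 58.5 in salt, so the log2 change was -0.58 in Roma against 1.67 in M-81E (interaction adjusted p = 0.0176). The invertase-type SORBI_3004G004800 read 27.4, 44.2 and 22.8 FPKM in Roma CK and 24.3, 21.3 and 14.3 in Roma salt, a difference between the lines of 1.62 ± 0.34 (adjusted p = 0.0471). For sucrose synthase SORBI_3001G378300, Roma had 15.1, 12.9 and 8.51 FPKM in CK and 37.2, 35.6 and 70.7 in salt, and the line difference of 0.19 ± 0.38 was within its error. Nor did the test call a line difference for the sodium transporter SORBI_3003G145800 (-0.42 ± 0.60) or the channel SORBI_3003G300600 (0.44 ± 0.35).

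The ACC synthase SORBI_3003G033900 was more abundant in Roma, at 135, 152 and 279 FPKM in CK, and read 125, 120.5 and 83.2 in salt (line difference -1.89 ± 0.38, adjusted p = 0.0415). The aquaporin SORBI_3010G087900 was below 1 FPKM in every Roma library, from 0.541 to 0.881, against 18.9 to 22.3 in M-81E CK, and its line difference was 1.24 ± 0.15 (adjusted p = 0.00583). The auxin carrier SORBI_3002G292100 read 28.1, 33.7 and 45.0 FPKM in Roma CK and 38.3, 46.1 and 35.2 in Roma salt (line difference 1.29 ± 0.23, adjusted p = 0.0288). The peroxidase SORBI_3003G140700 differed more in Roma, with 177, 183 and 179.7 FPKM in CK and 59.0, 55.9 and 40.3 in salt (line difference -1.02 ± 0.19, adjusted p = 0.0344).

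**Figure D5:**
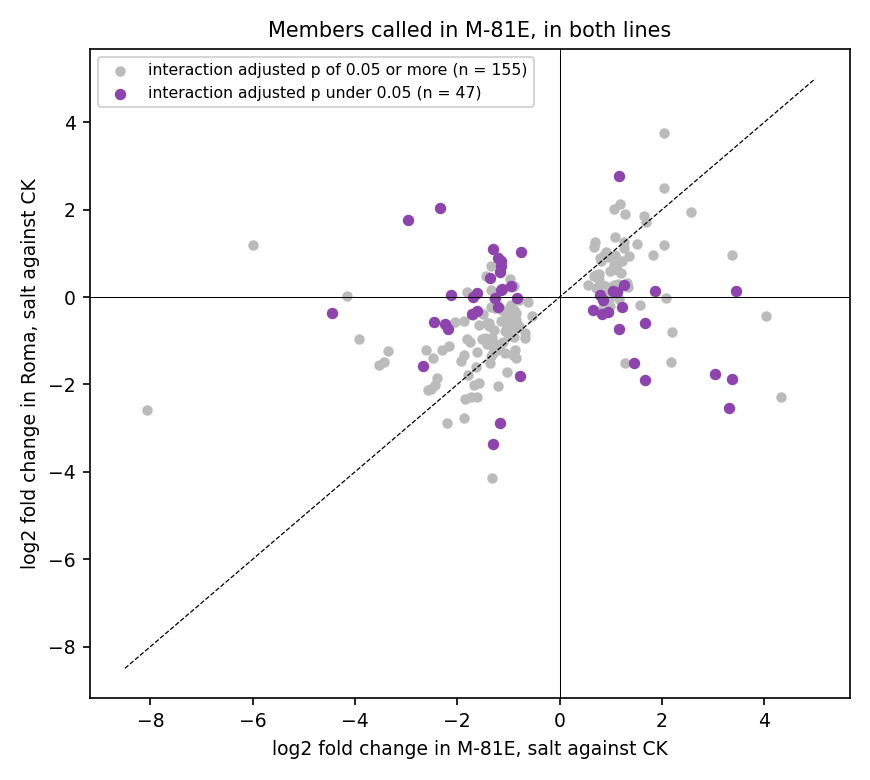
Log2 fold change in salt of the 202 members called in M-81E, in M-81E (horizontal axis) and in Roma (vertical axis), both on the log2(FPKM + 1) scale, with the dashed line marking equal change. Purple points are the 47 members whose response differed between the lines with an adjusted p under 0.05, and 43 of them lie nearer to 0 in Roma than in M-81E or on the other side of 0.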

How the data were processed

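Roots were sequenced by the authors from 12 libraries. Reads were trimmed with cutadapt, mapped with Bowtie2 and TopHat2 and assembled with StringTie, and the deposited table gives FPKM per locus as the authors computed them. Tool versions and the genome build are not given in the sources used here. The sample labels name a small RNA kit, while the paper also describes a kit with ribosomal RNA depletion for long RNA. The paper computed FPKM for genes and lncRNAs, which are long RNA, so the label does not match the values used here. Columns were matched to samples by name, and 0 were left over. No library pair was identical.

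FPKM are not counts, so log2(FPKM + 1) was fitted with limma 3.58.1 in R 4.3.3 (eBayes with a trend, Benjamini-Hochberg over all loci tested). The fit was tested on simulated data with known changes. Function lists were sets of GO terms or description words, and 58 of 71 had at least 3 members. The members and lists were chosen with earlier results of these data known. A list's median and counts carry no test.

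Loci were named by a rule: the 15 largest adjusted changes in each direction among described single-gene loci above 0 in all 6 libraries without overlap, up to 4 DEGs per list, the 5 most abundant in each direction, and the 5 most abundant with a group at 0. Not every locus so selected is described. Named beyond it, after values were seen, were SORBI_3002G417800, SORBI_3001G208200, SORBI_3001G372100, SORBI_3007G014700, SORBI_3001G304700, SORBI_3006G183900, SORBI_3010G182966, SORBI_3002G389100, SORBI_3009G197600, SORBI_3001G199400, SORBI_3008G003600, SORBI_3009G227400, SORBI_3001G146000, SORBI_3001G447500, SORBI_3001G488200, SORBI_3010G001600 and SORBI_3009G125800. The annotation supplied did not match SORBI identifiers, so gene symbols, coordinates and sequences were not used here. Alternatives were another pseudocount, prior, filter, scaling or model, a replicate block and leaving out each library.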

Additional observations from a re-analysis of the deposited data

Results flagged for a closer look

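These members changed in M-81E and had a salt response that differed from Roma's, by the interaction of line and treatment with an adjusted p under 0.05. The values are log2 changes in Roma minus those in M-81E on the log2(FPKM + 1) scale. Where an M-81E group is listed at 0, which can be a failed estimate, the value depends on the added 1 and is no measure of fold.

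Members that rose in M-81E and were less increased or were lower in Roma salt were the alpha-galactosidase SORBI_3001G208100 (-2.26), the ACC synthase SORBI_3003G033900 (-1.89), the sugar transporter SORBI_3008G094300 (-0.91), the nutrient reservoir locus SORBI_3001G143700 (-1.73), SORBI_3001G468400, with terms for floral organs and shoot branching (-2.95), the membrane locus SORBI_3010G066300 (-4.79), and 3 loci at 0 in M-81E CK, SORBI_3003G246200 (-5.25), SORBI_3009G165500 (-5.85) and SORBI_3007G008000 (-3.31). SORBI_3009G165500 was at 0 in 2 of 3 Roma salt libraries, and SORBI_3003G246200 in all 3 of them and in 1 of 3 Roma CK libraries. SORBI_3007G008000 read 1.10, 0 and 0 FPKM in Roma CK and 0, 0 and 1.78 in Roma salt.

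Members that fell in M-81E and were less decreased or were higher in Roma salt were the invertase-type SORBI_3004G004800 (1.62), the methionine lyase SORBI_3001G193600 (1.44), the kinase SORBI_3005G154100 (1.89), SORBI_3003G193400, with kinase GO terms but the enzyme number of a chitinase (1.30), the cytoskeleton gene SORBI_3001G197400 (1.30), the auxin carrier SORBI_3002G292100 (1.29), the aquaporin SORBI_3010G087900 (1.24), the transcription factor SORBI_3007G181500 (1.75), SORBI_3001G212000 of unknown function (1.11), and 2 loci at 0 in M-81E salt, the iron-sulfur protein SORBI_3002G263100 (2.17) and SORBI_3006G194200 (4.09).

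Members that fell in M-81E and had a larger decrease in Roma were the peroxidase SORBI_3003G140700 (-1.02) and SORBI_3002G421600, annotated to sulfate assimilation (-2.08).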

How the results depend on the processing

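Of the 79 risen and 123 fallen members, counts under a pseudocount of 0.1 (88 and 132) and rescaled libraries (72 and 143) were within 1.5 times. They moved to 276 and 310 with all 12 libraries in 1 fit (59 and 99 shared), 258 and 202 with 1 prior variance, 175 and 224 among loci of at least 1 FPKM, 45 and 45 without moderation of the variance, and 2 and 6 in the linear model of Ballgown. The cause was not tested. Leaving out single libraries gave 26 to 49 and 33 to 79, which uses fewer samples. Each of the 6 libraries moved a count by over 1.5 times: without M-81E-CK1 35 and 33 were called, without M-81E-CK2 26 and 44, without M-81E-CK3 32 and 59, without M-81E-salt1 32 and 37, without M-81E-salt2 26 and 39, and without M-81E-salt3 49 and 79. The 295 and 417 DEGs ranged from 234 to 369 and 315 to 481, except that a fold threshold on the log2(FPKM + 1) scale gave 157 and 265. Of the 76 loci named by rule that passed the adjusted test, 0 changed direction under the alternatives run. Their groups did not overlap, so a change of direction was hardly possible. An adjusted p under 0.05 was kept by 5 in the linear model of Ballgown, 2 with a replicate block and 36 without moderation of the variance. It was kept by 28 to 45 without single libraries and by 59 to 76 under the remaining alternatives. Those named beyond the rule were not followed singly. Among the 58 list medians, 0 to 10 changed sign depending on the alternative.

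Replicate numbers did not pair the libraries: the deviations of same-numbered CK and salt libraries correlated at -0.03, -0.01 and 0.04. With a replicate block, 0 members rose and 2 fell at an adjusted p under 0.05, although 305 and 415 were DEGs, and the interaction called 4 of the 202 members in place of 47. The depth of single libraries is unknown, so no detection limit can be given for loci listed at 0.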
